A study of Homo sapiens with 3 samples.

Results

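The 7 genes described here encode plasminogen activators, their receptor and inhibitors of extracellular proteases, namely PLAU, PLAUR, PLAT, SERPINE2, SERPINB2, TFPI2 and A2M. They were taken by symbol from the 58037 genes of a count table made from A375, a long-established line of human melanoma cells. RNA was sequenced from 3 cultures, one kept in serum-free DMEM (control) and the others in serum-free medium conditioned by differentiated subcutaneous adipocytes of young (YA) or old (OA) human donors, called secretomes. The exposure lasted 24 h per the series description, while the treatment protocol in the labels allows longer exposures. Each group had 1 library of a single unmodified cell line, the cells were trypsinised before RNA extraction, and the number of donors behind a secretome was not given in the sources used here. No difference below therefore has a replicate check, and the intervals given cover counting error only. In the study's list of donors the old ones were all male and the young ones mostly female. Body site and source were also unevenly shared between them. Which of these donors gave the secretomes used here was not stated, so donor age cannot be told apart from these traits.

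Plasmin is a broad serine protease that dissolves fibrin, cleaves matrix proteins and activates other proteases and growth factors. It is made from plasminogen by tissue-type plasminogen activator (PLAT) or by urokinase (PLAU), which works at the cell surface when bound to its receptor (PLAUR). Serpins such as SERPINE2 and SERPINB2 trap the activators, the Kunitz inhibitor TFPI2 blocks plasmin and related enzymes in the matrix, and A2M entraps proteases of every class in the fluid phase. Tumour cells use this system in matrix turnover, migration and invasion, and melanoma cells commonly make tissue-type plasminogen activator.

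The libraries held 18089008 to 21448195 counts. The 13 melanoma and neural crest markers summed to 769, 921 and 656 TPM in control, YA and OA, of which CSPG4, a proteoglycan of melanoma cells, made up the most. The markers did not move together, since the log2 fold change in YA against control was 0.58 for CSPG4 but -0.67 for MITF and -0.51 for S100B, and NGFR had -0.99 in OA against control. SOX10, a transcription factor of the melanocyte lineage, was listed at 0 in every library, which allows up to 3 counts, but A375 is usually described as expressing it, so this 0 is not read as a level. The pigment enzymes TYR and DCT were at or under 3 counts in each. Markers of other cells were read because a secretome could carry cells or their RNA. By the study's methods, secretomes were spun in a centrifuge and kept frozen before use, and what remained in them was not tested here. Of 12 adipocyte markers, ADIPOQ, LEP and CIDEA were at or under 3 counts in every library, and the list summed to 105 TPM (a level corrected for gene length and library depth) in control, 144 in YA and 107 in OA. Of 12 fibroblast and preadipocyte markers, COL1A2, COL3A1, DPT and MFAP5 were at or under 3 counts in every library, and the list summed to 25.4 TPM in control, 30.9 in YA and 21.6 in OA. These markers did not move together either. DCN had 13, 138 and 24 counts in control, YA and OA, while PDGFRA had 76, 20 and 51. PDGFRB, with the most counts of the list, had 515, 568 and 334. Leukocyte markers summed to 17.7, 17.3 and 12.3 TPM, with 7 of 10 at or under 3 counts in every library, and 7 endothelial markers summed to 7.32, 7.35 and 3.75 TPM. The control received no secretome and still held counts of these lists, such as 1608 of PPARG, 180 of KDR and 148 of LYZ. For YA and OA, RNA carried in and RNA made by A375 cells cannot be told apart in such bulk libraries. Nor can fewer cells of a type and less RNA per cell.

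Promoter sequence was searched because several members were higher in OA than in control, and the motifs and stretches were chosen after values and matches had been seen. RefSeq promoters (GRCh38.p14) were found for 5 of the 7 genes, with 7 start sites among PLAU, PLAUR, SERPINE2, SERPINB2 and TFPI2; PLAT and A2M had none in the table. The 250 bases before each start were searched on both strands for 6 motifs, namely AP-1 (TGANTCA), STAT (TTCNNNGAA), CRE (TGACGTCA), the TATA box (TATAAA), the GC box (GGGCGG) and the NF-kB consensus. Over all 35116 promoters an AP-1 match was present in 6.57%, an NF-kB match in 5.21%, a STAT match in 6.57%, a CRE match in 1.65%, a TATA box in 10.7% and a GC box in 42.6%. GC boxes matched 2 times before TFPI2, 3 times before one start of PLAU and in the windows of both SERPINE2 starts, and are thus not particular to one gene. The stretches of 30 bases below show the AP-1 and NF-kB matches found before members, with the TATA box of SERPINB2 and 1 of the GC boxes of SERPINE2 as examples of core promoter motifs. Capitals mark the matched bases, and each stretch is written 5′ to 3′ on the strand of its gene.
TFPI2, NF-kB match 152 to 143 bases before the start (chr7:93890886-93890915, minus strand): tcaacttggcGGGGAATTCCtctccctctt
TFPI2, AP-1 match 87 to 81 bases before the start (chr7:93890823-93890852, minus strand): agtccccgtgcaTGAATCAgccacccctca
PLAUR, AP-1 match 186 to 180 bases before the start (chr19:43670338-43670367, minus strand): atcacaactccaTGAGTCAgggccgagcca
SERPINB2, AP-1 match 102 to 96 bases before the start (chr18:63887591-63887620, plus strand): tgagtaaaatgtTGAATCActcaaaggaca
SERPINB2, TATA box 30 to 25 bases before the start (chr18:63887663-63887692, plus strand): ggggcaaagctgTATAAAaccagtcattac
SERPINE2, GC box 50 to 45 bases before the start (chr2:224031511-224031540, minus strand): accaatggctgtGGGCGGaggagggaggtt

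AP-1 letters were thus found before the starts of TFPI2, PLAUR and SERPINB2, and NF-kB letters before that of TFPI2. Neither motif matched before the starts of PLAU or SERPINE2, and no member window held a STAT or CRE match. A match describes letters in this window and not a binding site.

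The members spanned a wide range of expression. Per length, SERPINE2 stood at 2990 TPM in control, 2154 in YA and 2210 in OA, which placed it at rank 27, 43 and 38 of all genes. PLAT followed at 105, 136 and 224 TPM in the same order of libraries. PLAUR had 47.3, 37.4 and 72.3 TPM. A2M had 35.6 TPM in control and ranked above TFPI2 there at 21.7 TPM, while in OA TFPI2 had 101 TPM and A2M 2.64 TPM. PLAU, at 2.07 to 3.09 TPM, was close to the lower end, and SERPINB2 was under 1 TPM in every library. SERPINE2 alone made up 93.4% of the summed TPM of the 7 genes in the control library, 91.4% with YA and 84.5% with OA.

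**Figure D1:**
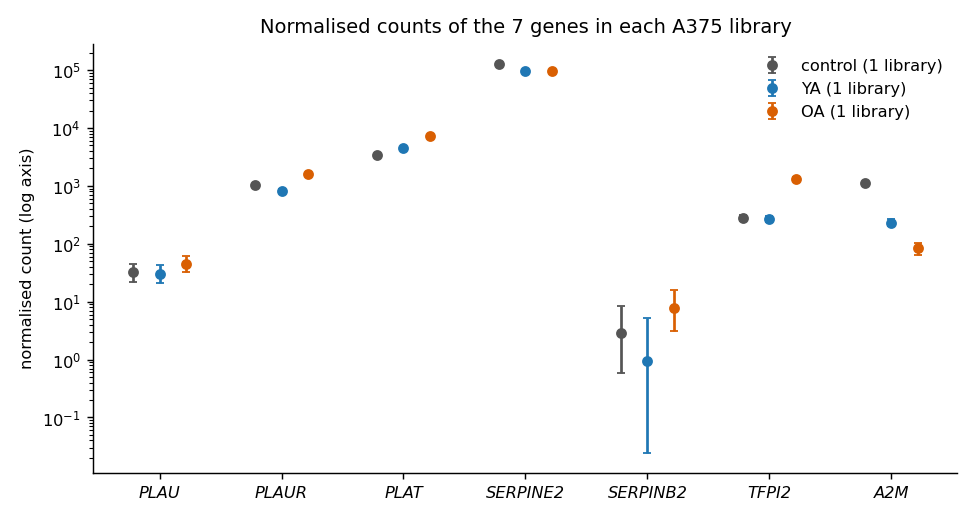
Normalised counts of the 7 genes in the control, YA and OA libraries on a log axis, with 1 point per library and bars for the exact 95% Poisson interval (counting error only). TFPI2 stands apart in OA, at 1330 against 283 in control and 266 in YA, A2M is at 1106 in control, above 232 in YA and 83.1 in OA, and SERPINE2 lies between 94768 and 129405.

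The activators were PLAT and PLAU. PLAT (ENSG00000104368.17; GRCh38 chromosome 8, 42175233 to 42207724) encodes the enzyme that acts mainly on fibrin-bound plasminogen. It had 3605, 4725 and 6510 counts in control, YA and OA, or 3397, 4466 and 7307 after division by size factors that correct for depth (normalised counts). Control was thus lowest and OA highest. PLAT had a ratio to control of 1.31 under YA (95% interval 1.26 to 1.37) and of 2.15 under OA (2.07 to 2.24), and YA was 0.611-fold of OA (0.589 to 0.635). None of these intervals held 1.

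PLAU (ENSG00000122861.15; chromosome 10, 73909177 to 73917497) encodes urokinase. It had 34, 32 and 40 counts in control, YA and OA, or 32.0, 30.2 and 44.9 normalised counts. Relative to control it was 0.944 with YA (interval 0.564 to 1.58), 1.40 with OA (0.865 to 2.28), and YA was 0.674-fold of OA (0.410 to 1.10). All 3 intervals held 1, so a difference was not detectable at this depth, although a 2-fold difference between OA and control would also lie within the interval. PLAU shares 916 exonic bases with C10orf55 on the opposite strand, which had at most 2 counts in a library.

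PLAUR (ENSG00000011422.11; chromosome 19, 43646095 to 43670547) encodes the urokinase receptor, a membrane-anchored protein that holds the protease at the cell surface. It had 1088, 872 and 1412 counts in control, YA and OA, or 1025, 824 and 1585 normalised counts. The secretomes lay on opposite sides of control, with YA lowest and OA highest. PLAUR had a ratio to control of 0.804 under YA (interval 0.735 to 0.880) and of 1.55 under OA (1.43 to 1.67), and the largest difference was that between YA and OA, at 0.520-fold (0.477 to 0.566).

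SERPINE2 (ENSG00000135919.12; chromosome 2, 223975112 to 224039319) encodes protease nexin-1, a secreted serpin that inhibits thrombin, urokinase, tissue-type plasminogen activator and plasmin. It had 137330, 100271 and 86121 counts in control, YA and OA, or 129405, 94768 and 96670 normalised counts, which were 0.640%, 0.471% and 0.476% of the library totals. Control was highest and both secretomes lay at nearly the same lower level. SERPINE2 had a ratio to control of 0.732 under YA (interval 0.726 to 0.738) and of 0.747 under OA (0.741 to 0.753). YA was 0.980-fold of OA (0.971 to 0.989), a difference far smaller than either ratio to control.

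SERPINB2 (ENSG00000197632.8; chromosome 18, 63871692 to 63903890) encodes plasminogen activator inhibitor type 2. It had 3, 1 and 7 counts in control, YA and OA, and was the only member under the minimum mean of 20 normalised counts. Control and YA were both at or under the floor of 3 counts, so no ratio was taken between them. OA was 2.78-fold of control with an interval of 0.635 to 16.7, and YA was 0.120-fold of OA with an interval of 0.00267 to 0.936. The gene shares 547 exonic bases with SERPINB10, which had at most 1 count in a library.

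TFPI2 (ENSG00000105825.11; chromosome 7, 93885396 to 93890991) encodes tissue factor pathway inhibitor 2, a matrix-bound Kunitz inhibitor of plasmin. It had 300, 281 and 1185 counts in control, YA and OA, or 283, 266 and 1330 normalised counts. OA stood far above the other libraries, which lay close together. The OA level of TFPI2 was 4.71 times that of control (interval 4.14 to 5.36), and 99.6% of the genes compared had a lower log2 fold change there. In YA it was 0.939-fold of control (0.796 to 1.11), where no difference was detectable at this depth, and OA was 5.01-fold of YA (4.39 to 5.72). Of the genes that overlap TFPI2 on the opposite strand, GNGT1 had 51, 50 and 22 counts in control, YA and OA, and AC002076.1 had 7, 6 and 1.

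A2M (ENSG00000175899.14; chromosome 12, 9067664 to 9116229) encodes alpha-2-macroglobulin, which cages proteases and hands them to the endocytic receptor LRP1. It had 1174, 246 and 74 counts in control, YA and OA, or 1106, 232 and 83.1 normalised counts. All 3 libraries were well separated, with control highest and OA lowest. Control was 4.76-fold of YA (interval 4.14 to 5.48) and 13.3-fold of OA (10.5 to 17.1), and YA was 2.80-fold of OA (2.15 to 3.68). Of the genes compared, 0.0416% had a lower log2 fold change than A2M for YA against control and 0.139% for OA. The antisense gene A2M-AS1 shares 561 exonic bases with A2M and had at most 1 count in a library. The fibroblast and preadipocyte markers differed from control by 21.9% in YA and -15.0% in OA in summed TPM, and the adipocyte markers by 37.2% in YA and 1.57% in OA. The leukocyte markers differed by -2.51% in YA and -30.4% in OA, and the endothelial markers by 0.435% in YA and -48.7% in OA. In control, LYZ held 16.2 of the 17.7 TPM of the leukocyte list and KDR 5.31 of the 7.32 TPM of the endothelial list. PPARG held 68.6 of the 105 TPM of the adipocyte list. In that list LPL had 353, 583 and 30 counts in control, YA and OA, while CIDEC had 6, 31 and 36. The part of these lists in the ratios of A2M was not tested.

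**Figure D2:**
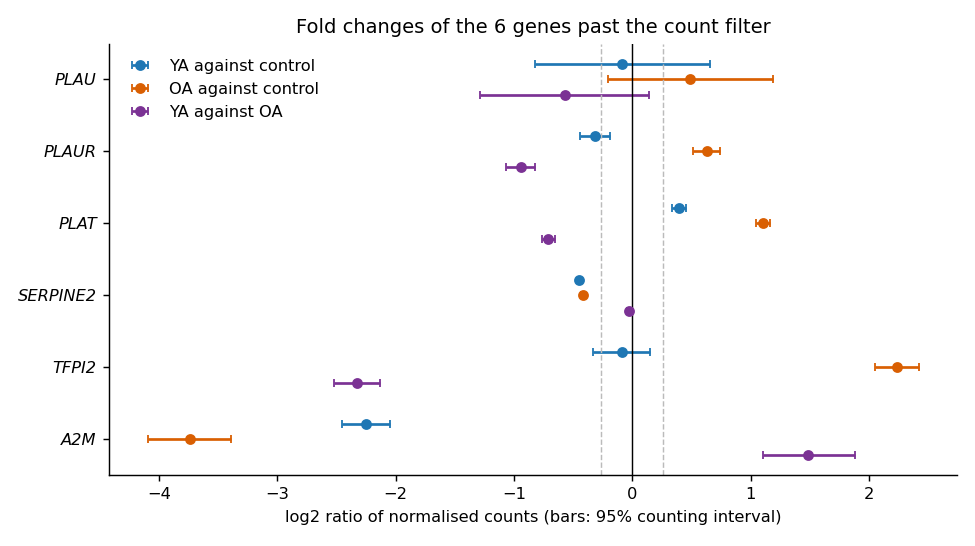
Log2 ratios of normalised counts for the 6 genes past the count filter in the 3 comparisons, with bars for the 95% Clopper-Pearson counting interval and dashed lines at 1.2-fold either way. A2M lies left of 0 in both comparisons with control, TFPI2 lies right of 0 in OA and on 0 in YA, and all 3 bars of PLAU cross 0.

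The order of the libraries therefore differed from gene to gene. Control was highest for SERPINE2 and A2M and lowest for PLAT. OA was highest for PLAT, PLAU, PLAUR, SERPINB2 and TFPI2, of which PLAU held no pair of libraries apart beyond counting error. Neighbouring levels whose counting interval for the ratio held 1 were YA and control for TFPI2 and every pair for PLAU. For SERPINB2 the interval between OA and control held 1, and control and YA were both at or under the floor.

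The number of members past a fold was read against all genes with a mean of at least 20 normalised counts. The fold was taken as log2((a + 1)/(b + 1)) with a pseudocount of 1, and 1.2-fold is the cutoff in the study's methods, read here as a linear fold because its scale is not stated. In YA against control, 1 of the 6 members compared was at least 1.2-fold higher (PLAT), where 17.4% of all 14413 genes were. In the same comparison 3 were at least 1.2-fold lower (PLAUR, SERPINE2 and A2M), where 16.4% of all genes were. A2M was the single member at least 2-fold lower, where 0.971% of genes were, and no member was at least 2-fold higher, where 2.15% were. The members' median log2 fold change was -0.20, beside -0.02 over all genes compared.

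In OA against control, 4 of 6 members were at least 1.2-fold higher (PLAT, PLAU, PLAUR and TFPI2, with 1 inside the interval of PLAU), where 21.1% of genes were, and 2 were lower (SERPINE2 and A2M), where 21.5% were. Past 2-fold, PLAT and TFPI2 were higher, where 2.86% of genes were, and A2M was lower, where 3.71% were. The median log2 fold change of the members was 0.55, beside 0.01 over all genes. In YA against OA, A2M was the 1 member at least 1.2-fold higher, where 23% of genes were. At least 1.2-fold lower were 4 members (PLAT, PLAU, PLAUR and TFPI2, with 1 inside the interval of PLAU), where 21.5% of genes were. At 2-fold A2M remained higher, where 4.43% of genes were, and TFPI2 lower, where 3.04% were. The members' median was -0.63, beside -0.01 over all genes. The comparisons share libraries with each other, and the 7 genes were chosen with earlier results of these data known, so these counts describe the genes and do not set them apart.

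**Figure D3:**
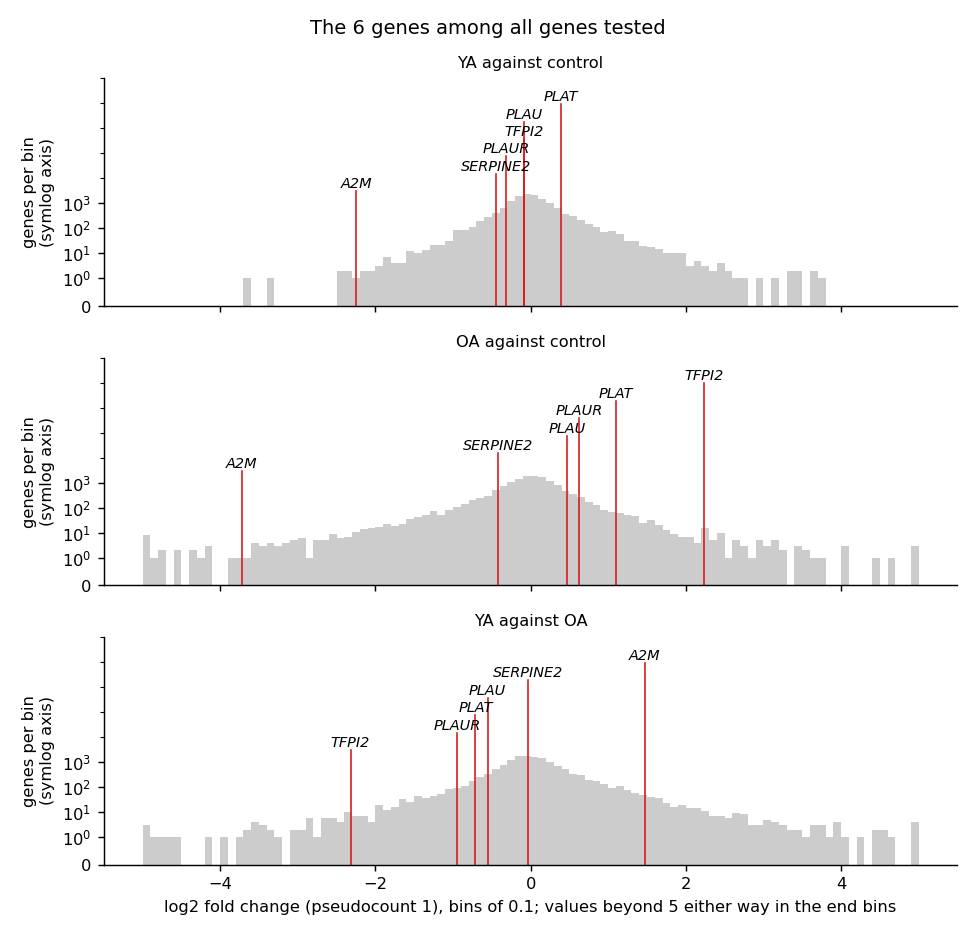
Distribution of log2 fold changes over the 14413 genes compared in each comparison (grey, genes per bin of 0.1 on a symmetric log axis, with values beyond 5 in the end bins) and the 6 compared members (red lines, whose heights only separate the labels). A2M at -2.25 in YA and -3.72 in OA, and TFPI2 at 2.23 in OA, lie in the tails, while SERPINE2 and PLAU lie within the bulk.

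A ratio taken within a library does not depend on how libraries are scaled. PLAT and SERPINE2, an activator and an inhibitor of it, were the 2 members with the most counts, and this pair was chosen after its values had been seen. PLAT had 2.63 counts per 100 counts of SERPINE2 in control (interval 2.54 to 2.71), 4.71 with YA (4.58 to 4.85) and 7.56 with OA (7.37 to 7.75). Per length these are 3.53, 6.33 and 10.2 TPM of PLAT per 100 TPM of SERPINE2. The intervals of the 3 libraries did not overlap, and SERPINE2 mRNA remained the more abundant in each.

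**Figure D4:**
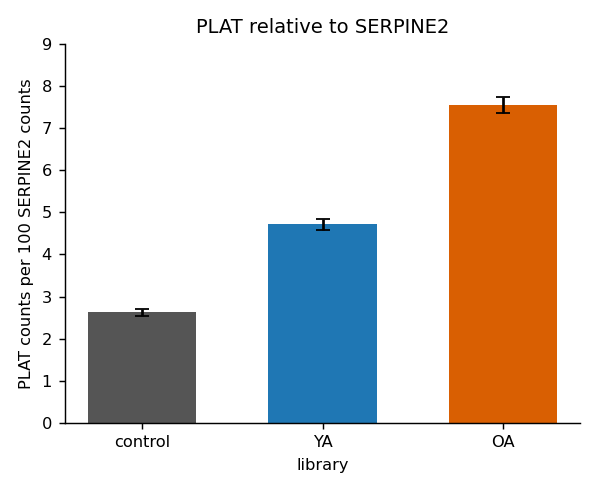
Counts of PLAT per 100 counts of SERPINE2 within each library, with bars from 0 and the 95% Clopper-Pearson counting interval. The value was 2.63, 4.71 and 7.56 in control, YA and OA.

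The rest of the pathway was read from lists of genes, and counts below leave out the 7 members. They stand beside a share over all genes of 17.4% higher and 16.4% lower with YA, and 21.1% higher and 21.5% lower with OA. Of 12 other genes of plasminogen activation and fibrinolysis that were compared, 5 were at least 1.2-fold higher and 3 lower with YA than in control, while 5 were higher and 2 lower with OA. Plasminogen itself (PLG) had 1 count in control and 0 in YA and OA, so the substrate of the activators was not detected beyond the floor of 3 counts. LRP1, the receptor that takes up activator and A2M complexes, had 3798, 5400 and 3754 counts in control, YA and OA and was 1.43-fold of control in YA (1.37 to 1.49). ANXA2, which docks plasminogen at the cell surface, had 16836, 19141 and 17356 counts and a log2 fold change of 0.30 in OA against control. SERPINA5, an inhibitor of activated protein C and urokinase, was 1.74-fold of control in YA (1.49 to 2.04). SERPINI1, or neuroserpin, an inhibitor of tissue-type plasminogen activator, had 54, 27 and 15 counts, with ratios to control of 0.501 for YA (0.304 to 0.810) and 0.331 for OA (0.173 to 0.595).

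Among 13 other serpins, 4 were at least 1.2-fold higher and 4 lower than control under each secretome. SERPINA1, which inhibits neutrophil elastase, had 118, 127 and 277 counts and was 2.80-fold of control in OA (2.25 to 3.50). SERPINB7 had 196, 59 and 271 counts and was 0.302-fold of control in YA (0.222 to 0.406). Of 14 other Kunitz, macroglobulin, cystatin and WAP-type inhibitors, 3 were higher and 2 lower with YA, while 1 was higher and 6 lower with OA. SPOCK1, a secreted proteoglycan, had 3956, 2830 and 1692 counts, a ratio to control of 0.718 for YA (0.683 to 0.753) and 0.509 for OA (0.481 to 0.539). PI15, a secreted peptidase inhibitor, was 0.382-fold of control in OA (0.280 to 0.515), and CD109, a membrane-bound relative of A2M, was 0.761-fold (0.737 to 0.785). CST3, the cysteine protease inhibitor cystatin C, was 1.27-fold of control in YA (1.19 to 1.36), and COL7A1, a collagen with a Kunitz domain, was 1.47-fold (1.22 to 1.78).

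Of 16 other extracellular and membrane serine proteases, 4 were at least 1.2-fold higher and 6 lower with YA, while 7 were higher and 8 lower with OA. TMPRSS15, which activates trypsinogen in the gut, had 592, 607 and 2087 counts, and YA was 0.245-fold of OA (0.223 to 0.268). PCSK1, a prohormone convertase, had 539, 382 and 109 counts and was 0.241-fold of control in OA (0.194 to 0.296). HTRA1, a secreted serine protease, was 0.426-fold of control in OA (0.371 to 0.489). MASP2, of the lectin pathway of complement, had 18 counts in the control library and 56 with YA, a ratio of 3.12 (1.81 to 5.64). PCSK5, another convertase, had 60 counts with YA and 12 with OA. Of 10 coagulation genes other than TFPI2, 0 were higher and 4 lower with YA, while 3 were higher and 5 lower with OA. F2R, the main thrombin receptor, had 4412, 3353 and 1868 counts, a ratio to control of 0.762 for YA (0.729 to 0.797) and 0.504 for OA (0.478 to 0.533). The related receptor F2RL1 was 0.646-fold of control in OA (0.530 to 0.785), and SERPIND1, or heparin cofactor II, was 0.496-fold (0.349 to 0.696). F3, tissue factor, had 117 counts with YA and 138 with OA, a ratio of 0.714 (0.553 to 0.920).

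Of 10 other genes of the LY6/uPAR domain family, to which PLAUR belongs, 1 was at least 1.2-fold higher and 6 lower with YA, while 4 were higher and 4 lower with OA. LYPD3 was 2.30-fold of control in OA (1.73 to 3.09), and LYPD1 was 0.366-fold in YA (0.247 to 0.532). CD59, a complement regulator, was 0.797-fold of control in YA (0.766 to 0.830) but 1.30-fold in OA (1.25 to 1.35). By normalised counts this order, with OA highest and YA lowest, was also that of PLAUR, LYPD1 and LYPD3. PSCA had 29 counts in control and 55 with YA, and LYNX1 had 40 in control and 16 with OA. Of 19 receptor partners and growth factor genes of the plasmin system, 5 were higher and 9 lower with YA, while 10 were higher and 5 lower with OA. IGFBP5, an insulin-like growth factor binding protein, had 745, 193 and 1904 counts, a ratio to control of 0.260 for YA (0.221 to 0.305) and 3.04 for OA (2.80 to 3.32). IGFBP3, of the same family, was 0.352-fold of control in YA (0.329 to 0.375). ITGA5, the alpha chain of a fibronectin receptor, was 2.11-fold of control in OA (2.03 to 2.20), and PDGFD, a growth factor, was 0.222-fold in OA (0.116 to 0.397). VEGFA, an angiogenic factor, had 1258 counts in the control library and 2016 with YA. LTBP1, which holds latent TGF-beta in the matrix, had 92 counts with YA and 265 with OA. Of 10 endocytic receptors for protease-inhibitor complexes, 4 were higher and 2 lower with YA, while 3 were higher and 2 lower with OA. VLDLR was 1.98-fold of control in OA (1.59 to 2.48), and SORL1 had 75, 35 and 110 counts. SORT1 had 1864, 1386 and 1170 counts. IGF2R was 1.26-fold of OA in YA (1.21 to 1.31). The medians of the whole lists, members included, lay between -0.29 and 0.07 on the log2 scale for YA against control, and between -0.18 and 0.28 for OA.

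**Figure D5:**
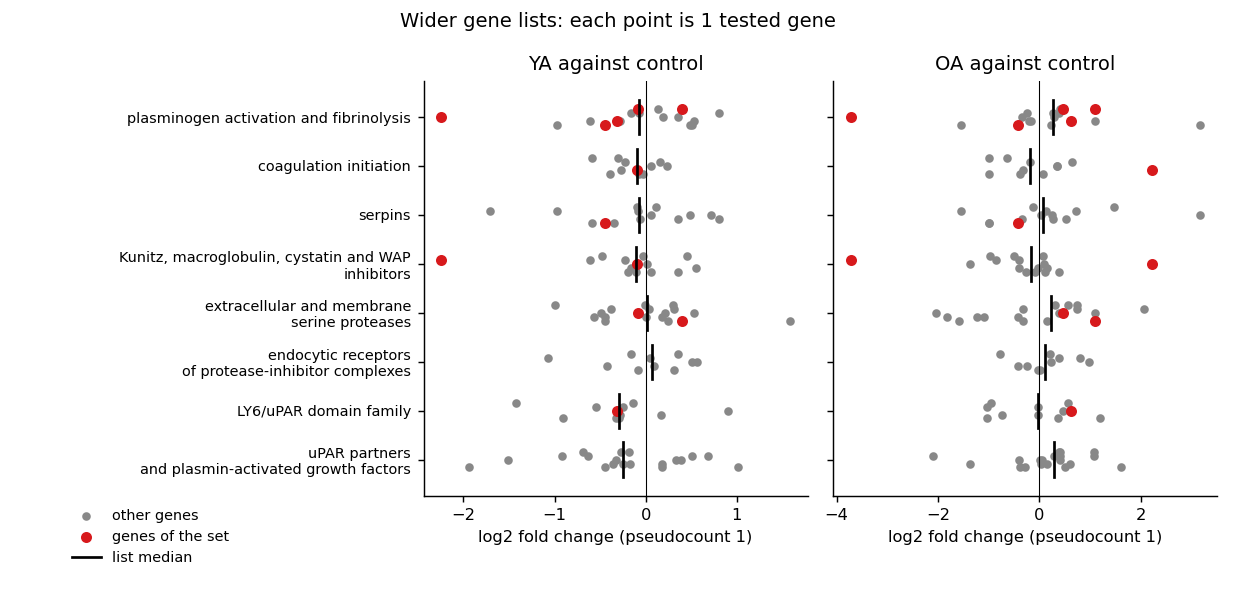
Log2 fold changes of the compared genes of 8 lists in YA and OA against control, with the 6 compared members in red, other genes in grey and a black bar at the list median. Points of most lists fall on both sides of 0, and A2M and TFPI2 stand at the edge of the inhibitor list in OA.

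Genes with a pattern like that of a member were sought over the 3 libraries, by the distance between pairs of log2 fold changes (YA and OA, each against control), among 10611 or 10612 protein-coding genes with a mean of at least 100 normalised counts. The genes nearest to TFPI2 were LAMA1, a laminin chain, with 65, 69 and 259 counts in control, YA and OA, at a distance of 0.18, and TOR4A, with 261, 273 and 973 counts. Only 6 genes lay within 0.25 of TFPI2. A2M had no gene within that distance, and the nearest, TXK and SPON2, lay 0.98 and 1.14 away. SPON2, a secreted matrix protein, had 1636, 498 and 51 counts in control, YA and OA. By contrast 822 genes lay within 0.25 of PLAU, 462 of SERPINE2, 121 of PLAUR and 36 of PLAT. Such a number depends on how far a member's folds lie from those of most genes, so it partly restates the size of the folds. PLAU had at most 40 counts in a library, so which genes lie near it is uncertain from counting error alone. The nearest pairs were C3orf67 and STIP1 for PLAU, TRIM36 and EPHX4 for SERPINE2, NRGN and CHGB for PLAUR, and CD33 and CCNA1 for PLAT. With 3 libraries such likeness is a description only.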

How the data were processed

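Poly(A) RNA libraries of A375 cells (Agilent SureSelect) were sequenced on an Illumina NovaSeq. The authors deposited raw counts per gene, whole numbers with no normalization. The submitters' processing notes name STAR 2.5.1b, featureCounts, R 3.6.1 and hg38, while the strand setting and annotation release are not given in the sources used here, so reads in exons shared with antisense or overlapping genes are uncertain. Here counts were divided by DESeq2 1.42.0 size factors (1.06 for control, 1.06 for YA, 0.891 for OA) in R 4.3.3. Genes with a mean of at least 20 normalised counts were compared, and log2 fold changes used a pseudocount of 1. With 1 library per group no p-value was computed, which also left out edgeR's quasi-likelihood test. Ratios carry 95% Clopper-Pearson intervals from the reads of both libraries, and levels exact Poisson intervals. No molecular identifiers are mentioned in the labels, so reads may not be independent molecules, and these intervals, like the floor of 3 counts, reflect counting error alone. The fold and interval functions were tested on simulated data. TPM used union exon lengths from GENCODE 29 (57433 of 58037 identifiers matched), which understate genes with rarely used exons. Computation used scipy 1.17.1, pandas 2.3.3 and numpy 2.4.6 under Python 3.11.15, and plots matplotlib 3.10.9.

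The members and lists were chosen with earlier results of these data known. Named genes are all members, up to 3 non-members per list and comparison with the counting bound furthest from 1, and the 2 nearest genes per member. Some genes selected in this way are not reported here. PLG, marker genes and overlapping genes were named beside the results they touch. Alternatives changed the threshold, the pseudocount (5), the filter (none, or a mean of 100) and the scaling (library totals, or TMM from edgeR 4.0.16).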

Additional observations from a re-analysis of the deposited data

How the results depend on the processing

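The number of members past 1.2-fold in either direction was 4 in YA against control, 6 in OA against control and 5 in YA against OA. It stayed within 1.5 times that number with a pseudocount of 5, with library totals or edgeR's TMM as the scaling, without the filter or with a mean of 100 normalised counts required, and with the counting interval required to lie beyond 1.2-fold. At 2-fold it was 1, 3 and 2 in the same order, and at a log2 fold change of 1.2 it was 1, 2 and 2, since stricter thresholds lower the counts by construction. No member's log2 fold change altered its sign under another scaling, filter or pseudocount, and the one value that left its counting interval was SERPINE2 in OA, from -0.42 to -0.43 under TMM scaling. Of 120 list medians under alternatives, 8 altered their sign, all with another filter, which alters the genes compared. For the serine proteases in OA the median went from 0.24 to -0.41 with no filter, and for the LY6/uPAR family in YA against OA from 0.13 to -0.46 with a minimum mean of 100. No paired analysis was possible because each group had 1 library. Depth limits PLAU and SERPINB2, with at most 40 and 7 counts in a library.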
